A study of Mus musculus with 6 samples.

Results

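Nucleic acid sensors are the proteins with which a cell recognises viral or misplaced RNA and DNA. The 10 genes described here are 8 listed symbols, Ddx58, Ifih1, Dhx58, Mavs, Zbp1, Tlr3, Trex1 and Eif2ak2, together with Tmem173 and Mb21d1, the older symbols for the genes of STING and cGAS. The rule takes them by symbol and uses no measured value, but the members were chosen with earlier results of these data known. All 10 were found among the 24062 genes of the count table. Each also passed the filter on low counts, a sum of at least 10 over the 6 libraries.

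RNA was sequenced from retinae of mice at P21, with 3 retinae of each of 2 genotypes. The strain is C57BL/6 in the labels and a C57BL/6N background in the study's methods. Both genotypes carried Chx10-Cre, a Cre transgene active in retinal progenitors, with floxed Rb1 alleles and a germline loss of p107, and are the mouse retinoblastoma model. Rb1/p107/Hells TKO retinae also carried floxed Hells, which encodes a SNF2-family chromatin remodeler, and Rb1/p107 DKO retinae did not. The comparison of TKO with DKO addresses which transcripts differ when floxed Hells is added to floxed Rb1 and loss of p107. No retina with intact Rb1 and p107 entered it. Chx10-Cre is mosaic, so each retina also held cells that had not recombined. The labels do not say whether the retinae of a group came from separate animals, so the p-values measure the spread between these samples, which may in part be technical.

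RIG-I (Ddx58) and MDA5 (Ifih1) bind double-stranded RNA in the cytosol and signal through the mitochondrial adaptor MAVS, while LGP2 (Dhx58) lacks the signalling domain and modulates both. TLR3 reads double-stranded RNA in endosomes, PKR (Eif2ak2) binds it and halts translation, and cGAS makes the second messenger that activates STING when DNA lies in the cytosol. ZBP1 binds nucleic acids in the Z conformation, and TREX1 degrades cytosolic DNA before cGAS can bind it. Many of these genes are themselves induced by interferon through interferon-stimulated response elements, and in the retina they are known from glia and microglia as well as neurons.

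Library totals ran from 10343907 to 14203098 counts. The 10 rod markers examined were all abundant and higher in TKO retinae, with summed normalized counts of 375810 to 760620 against 128190 to 245200 in DKO retinae. TKO replicate 2 stood apart in lens markers, whose normalized counts summed to 4061 in it, to 666 and 729 in the other TKO retinae and to between 160 and 175 in DKO retinae. Hells itself, the targeted gene, reached 60.8 to 83.4 normalized counts in TKO libraries and 395 to 678 in DKO libraries, so every library followed its label. Normalized counts here are raw counts corrected for library size by TMM, on the scale of an average library. Rb1, floxed in both genotypes, had 814, 746 and 682 normalized counts in TKO and 617, 583 and 572 in DKO retinae. It was higher in TKO retinae by 0.34 on the log2 scale (adjusted p = 0.0388 from edgeR). Whether the share of recombined cells differed between the genotypes was not tested.

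The promoter letters of 3 sensors are shown first because an exact core of the interferon-stimulated response element was found in them. The core searched for was GAAA, then 2 bases of any kind, then GAAA again, on either strand. RefSeq promoters (GRCm38.p6, 250 bases before to 50 bases after an annotated start) are reported here for 7 of the 10 genes. These were Ddx58, Ifih1, Mavs, Tlr3, Trex1, Eif2ak2 and Mb21d1, the last under its newer symbol Cgas. Dhx58 and Zbp1 had no entry, and the promoter of Tmem173 is not reported here. The core was in 3 of these 7, against 3.44% of all 32851 promoters in the table. Each window below has 30 bases, written 5′ to 3′ on the gene's own strand, and the capitals mark the core. The Ddx58 core reads on the opposite strand. All 3 genes lie on the minus strand, and the windows are chr4:40239804-40239833 for Ddx58, chr2:62646206-62646235 for Ifih1 and chr17:78882535-78882564 for Eif2ak2.
Ddx58: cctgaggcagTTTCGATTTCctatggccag
Ifih1: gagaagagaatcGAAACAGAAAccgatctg
Eif2ak2: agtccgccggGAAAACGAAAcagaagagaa
All 3 cores began just after the annotated start, at base 3 of Ddx58, base 33 of Ifih1 and base 19 of Eif2ak2. With 1 mismatch allowed, the core was also found in Tlr3, in 4 of the 7 genes in all, but 35.4% of all promoters hold such a match. The Tlr3 window is chr8:45410420-45410449 on the minus strand. Its match begins 59 bases before the RefSeq start and again reads on the opposite strand. Both that start and the match lie inside the GENCODE locus of Tlr3 (chr8:45395665-45411080), so the 2 annotations differ in where the gene starts.
Tlr3: agtgaatggcTTTCACTTTGtttagacaca
No match was found in the windows of Mavs, Trex1 or Mb21d1, which says only that these letters are not in those windows. Of the 7 genes, Eif2ak2 alone held the exact core of the gamma-activated site, TTCNNNGAA, which 8.3% of all promoters hold. It lies at bases -178 to -170 from the start of Eif2ak2, apart from the response element. A match is a description of the sequence and not a bound site.

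Of the 10 sensor genes, 8 were lower in TKO than in DKO retinae by edgeR's quasi-likelihood test at a Benjamini-Hochberg adjusted p of at most 0.05, and 0 were higher. Over all 16904 genes tested, 9.2% were lower and 7.35% were higher by the same rule, 16.6% in either direction. When a log2 fold change of 1 or more in size and a mean of 10 or more normalized counts were required too, 7 of the 10 met the 3 criteria as lower and 0 as higher, against 4.38% and 1.97% of all genes. The median log2 fold change of the 10 genes was -1.29, beside -0.01 over all genes tested. Because the members were chosen with earlier results of these data known, these shares are descriptions and not a test of the set. DESeq2 put the same 8 genes past the threshold. In bulk tissue, fewer cells of a type and less RNA per cell cannot be told apart.

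**Figure D1:**
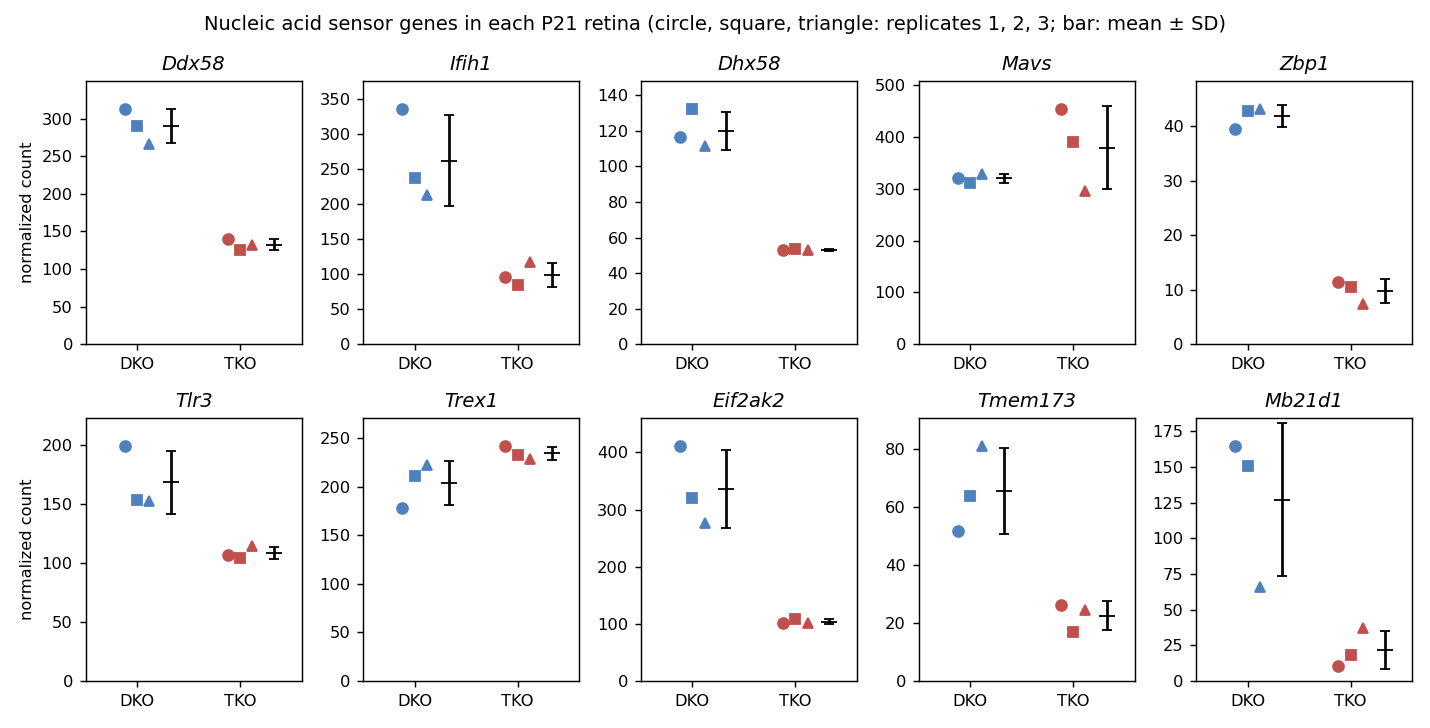
Normalized counts of the 10 sensor genes, with the genotype on the x axis, 1 point for each retina and a bar for the mean ± SD of 3 retinae. The TKO points lie below all DKO points in 8 panels, above them for Trex1 (228 to 242 against 178 to 222) and among them for Mavs.

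Among the RNA helicases, Ddx58 (chr4:40203773-40239828, minus strand, GRCm38) encodes RIG-I, which binds short double-stranded RNA with a 5′ triphosphate. Its normalized counts were 140, 125 and 133 in the TKO retinae and 312, 291 and 267 in the DKO retinae, each given in the order of replicates 1, 2 and 3, as for the genes that follow. The groups were well separated and each was tight, at 133 ± 7.33 and 290.0 ± 22.8 (SD, n = 3 each). Ddx58 fell 2.19-fold, a log2 fold change of -1.13 (standard error 0.125, 95% interval -1.41 to -0.84, adjusted p = 0.0048 from edgeR).

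Ifih1 (chr2:62595798-62646255, minus strand) encodes MDA5, which binds long double-stranded RNA. Its normalized counts were 95.2, 84.2 and 117 in the TKO retinae and 335, 237 and 213 in the DKO retinae. The groups did not overlap, with replicate 3 the highest TKO retina and the lowest DKO retina, and DKO replicate 1 stood above the other DKO retinae. Ifih1 fell 2.66-fold, with means of 98.7 ± 16.5 and 262 ± 64.5 (SD, n = 3 each) and a log2 difference of -1.41 (standard error 0.211, 95% interval -1.89 to -0.93, adjusted p = 0.00733 from edgeR).

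Dhx58 (chr11:100694884-100704271, minus strand) encodes LGP2. It had 52.8, 53.7 and 52.8 normalized counts in TKO retinae, where the coefficient of variation was 0.998%, and 117, 132 and 111 in DKO retinae. At raw TKO counts of 46, 51 and 43, counting error alone is larger than that spread, so the near equality shows no constant level. Every DKO retina was above every TKO retina. Dhx58 fell 2.26-fold (log2 fold change -1.18, standard error 0.169, 95% interval -1.56 to -0.79, adjusted p = 0.00707 from edgeR), and 141 bases of its exons overlap an annotated antisense transcript, Dhx58os. Across the 6 retinae, Ddx58 and Dhx58 had the most similar profiles of any pair of the 10 genes, with a root mean square difference of 0.0979 between their log2 deviations.

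Mavs (chr2:131234063-131248025, plus strand), the adaptor through which the RNA helicases signal, did not pass the test. Its normalized counts were 454, 390 and 296 in TKO retinae and 321, 312 and 329 in DKO retinae. TKO replicate 3 lay below every DKO retina and the other TKO retinae lay above them, so the groups overlapped and the TKO spread (380.1 ± 79.7) was wider than the DKO spread (321 ± 8.65; SD, n = 3 each). The log2 fold change was 0.25 (standard error 0.153, 95% interval -0.10 to 0.60, adjusted p = 0.297 from edgeR). Without TKO replicate 3 Mavs passed the test in the higher direction, at 0.40 on the log2 scale (edgeR's adjusted p = 0.0469).

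**Figure D2:**
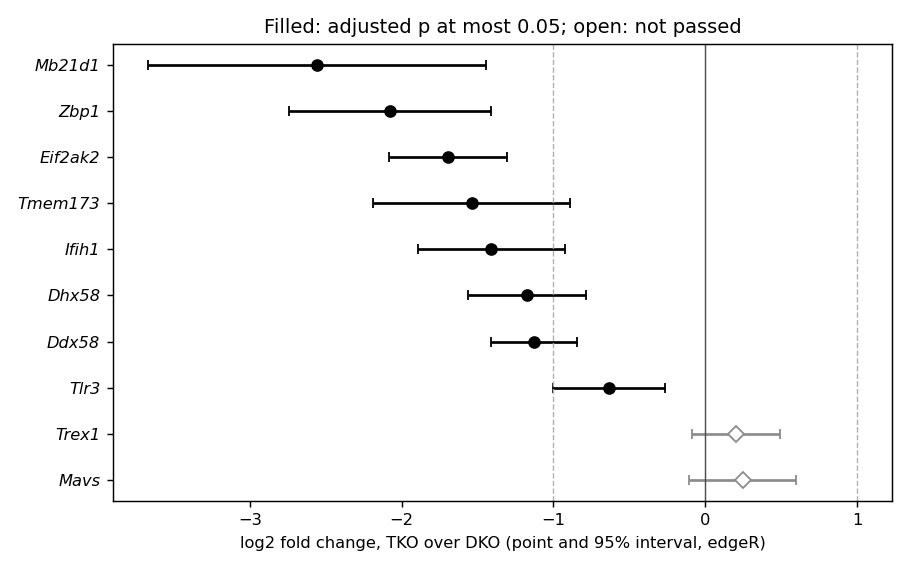
Log2 fold change of TKO over DKO on the x axis for each sensor gene, with the 95% interval from edgeR, filled where the adjusted p was at most 0.05. The intervals of 8 genes lie wholly below 0, from Tlr3 at -0.64 to Mb21d1 at -2.56, and those of Mavs and Trex1 cross 0.

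Tlr3 (chr8:45395665-45411080, minus strand), the endosomal receptor for double-stranded RNA, showed the smallest difference among the genes that passed. It had 106.6, 104 and 114 normalized counts in TKO retinae and 200, 153 and 153 in DKO retinae, where replicate 1 was the highest. The groups did not overlap, at 108 ± 5.17 and 169 ± 26.8 (SD, n = 3 each). Tlr3 fell by 0.64 on the log2 scale (standard error 0.161, 95% interval -1.01 to -0.27, adjusted p = 0.0321 from edgeR), short of the fold criterion. The call was lost without TKO replicate 1 (adjusted p = 0.0889), TKO replicate 2 (0.114), DKO replicate 1 (0.111) or DKO replicate 2 (0.0798), all from edgeR. An antisense transcript, Gm45542, shares 381 bases with its exons.

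Eif2ak2 (chr17:78852564-78882573, minus strand) encodes PKR, the kinase that phosphorylates eIF2alpha upon binding double-stranded RNA. It had 102, 108 and 101 normalized counts in TKO retinae and 411, 320 and 277 in DKO retinae. The TKO retinae were nearly equal and the lowest DKO retina, replicate 3, was still well above them. Eif2ak2 fell 3.24-fold, from 336 ± 68.5 in DKO to 104 ± 4.14 in TKO retinae (SD, n = 3 each), or by 1.69 on the log2 scale (standard error 0.169, 95% interval -2.08 to -1.31). Its adjusted p of 0.00464 from edgeR was the lowest of the 10 genes. Annotated transcripts on the opposite strand share 47 and 174 bases with its exons.

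On the DNA-sensing side, Mb21d1 (annotated as Cgas, chr9:78430526-78443237, minus strand) encodes cGAS and had the greatest fold change of the 10 genes. Its normalized counts were 10.3, 17.9 and 36.8 in TKO retinae and 165, 151 and 65.6 in DKO retinae. Replicate 3 of each genotype lay toward the other genotype, and the coefficient of variation was 63.0% in TKO and 42.2% in DKO retinae, the widest of the 10 genes in each group. Mb21d1 fell 5.88-fold, from 127 ± 53.6 to 21.7 ± 13.6 (SD, n = 3 each), or by 2.56 on the log2 scale (standard error 0.486, 95% interval -3.67 to -1.44, adjusted p = 0.0127 from edgeR). With 1 retina left out the log2 fold change ran from -3.14, without TKO replicate 3, to -2.23. The call was lost without TKO replicate 2 (adjusted p = 0.0623), DKO replicate 1 (0.0541) or DKO replicate 2 (0.0565), all from edgeR. A pseudogene on the opposite strand shares 201 bases with its exons.

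Tmem173, on chromosome 18, encodes STING, the membrane protein that cGAS activates. It had 26.4, 16.8 and 24.5 normalized counts in TKO retinae and 51.8, 63.9 and 81.2 in DKO retinae. The groups did not overlap, at 22.6 ± 5.06 and 65.6 ± 14.8 (SD, n = 3 each), and here DKO replicate 3 was the highest retina, whereas it was the lowest DKO retina for Mb21d1. Tmem173 fell 2.91-fold (log2 fold change -1.54, standard error 0.284, 95% interval -2.19 to -0.89, adjusted p = 0.0119 from edgeR). Without TKO replicate 2 its adjusted p was 0.0536 and without DKO replicate 2 it was 0.051, both from edgeR and above the threshold.

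Zbp1 (chr2:173206612-173218923, minus strand) encodes the Z-nucleic acid sensor that can start necroptosis through RIPK3. Its raw counts, summed over the libraries, were the lowest of the 10 genes, at 10, 10 and 6 in TKO and 42, 49 and 50 in DKO retinae. These correspond to 11.5, 10.5 and 7.36 normalized counts in TKO retinae and 39.5, 42.9 and 43.2 in DKO retinae. The DKO retinae were nearly equal and every TKO retina was far below them. Zbp1 fell 4.22-fold, from 41.9 ± 2.03 to 9.79 ± 2.15 (SD, n = 3 each), or by 2.08 on the log2 scale (95% interval -2.74 to -1.41, adjusted p = 0.00698 from edgeR).

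Trex1 (chr9:109057933-109059734, minus strand), the exonuclease that removes cytosolic DNA, did not pass the test. It had 242, 233 and 228 normalized counts in TKO retinae and 178, 211 and 222 in DKO retinae. Every TKO retina was above every DKO retina, which was so for 18% of all genes tested in that direction, and the gap between TKO replicate 3 and DKO replicate 3 was small. The log2 fold change was 0.20 (standard error 0.127, 95% interval -0.09 to 0.49, adjusted p = 0.304 from edgeR). All 1147 exonic bases of Trex1 are shared, on the same strand, with annotated exons of Atrip, a checkpoint gene. Atrip had 538 ± 33.5 and 359 ± 14.7 normalized counts (SD, n = 3 each) and rose by 0.58 on the log2 scale (edgeR's adjusted p = 0.00821). How reads in the shared bases were assigned is not given in the sources used here, so the Trex1 values are uncertain.

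For the groups that did not overlap, 8 of the 10 sensor genes had every TKO retina below every DKO retina, against 20.6% of all genes tested, and 9 had groups that did not overlap in either direction, against 38.6%. Levels of different genes can be compared only per length. For this, counts were divided by the joined length of all annotated exons of the gene and scaled to 1e6 in each library. In DKO retinae Trex1 had the highest level at 64.95 ± 5.53 counts per kb per 1e6, with the limit of the shared Atrip exons, followed by Mavs at 35.1 ± 1.04 and Eif2ak2 at 24.2 ± 5.67 (SD, n = 3 each). Ddx58 (15.1), Dhx58 (13.5), Tlr3 (11.9), Ifih1 (11.8), Mb21d1 (11.4) and Tmem173 (8.74) followed, and neighbours in this stretch overlapped between retinae. Zbp1 was the lowest at 4.35 ± 0.116, below all retinae of Tmem173.

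In TKO retinae the order began in the same way, with Trex1 at 68.1 ± 2.20 and Mavs at 37.7 ± 6.57 counts per kb per 1e6 (SD, n = 3 each). The next gene was then Tlr3 at 6.95, whose retinae overlapped those of Eif2ak2 at 6.76, which in turn overlapped Ddx58 at 6.28. Dhx58 at 5.41 and Ifih1 at 4.05 came next without overlap. Tmem173 (2.76), Mb21d1 (1.79) and Zbp1 (0.92) closed the order, and in it Mb21d1 overlapped both of its neighbours. In every TKO retina Mavs and Trex1 were above the other 8 genes on this scale. The middle of both orders depends on the length used. Per length of the longest transcript, the TKO mean of Ddx58 (8.52) was above those of Tlr3 (6.13) and Eif2ak2 (5.98). The DKO mean of Ifih1 (13.1) was then above that of Tlr3 (10.5).

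**Figure D3:**
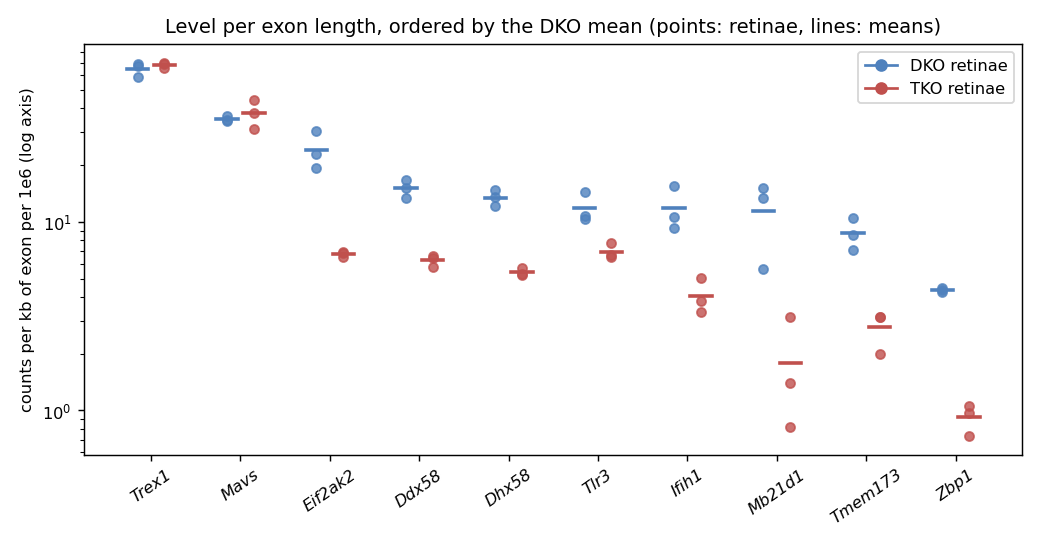
Level of each sensor gene in counts per kb of exon per 1e6, on a log axis, with a point for each retina and a line for the group mean, ordered by the DKO mean. Within Trex1 (means 64.95 in DKO and 68.1 in TKO) and within Mavs (35.1 and 37.7) the genotypes lie close together. The other 8 genes have TKO means of 0.92 to 6.95 against DKO means of 4.35 to 24.2.

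The other genes of these pathways were read from hand-written lists of 126 genes in all, of which 99 were tested. These lists too were chosen with earlier results of these data known. Of these 99, 19 fell and 5 rose in TKO retinae by edgeR's adjusted p, with a median log2 fold change of -0.15, beside 9.2% lower and 7.35% higher over all genes tested. The higher share lay below that of all genes. Scaling by library totals alone moved the median of all genes from -0.01 to -0.17, and under it 29 pathway genes passed as lower and 0 as higher. Without TKO replicate 1 the counts were 10 lower and 1 higher, without TKO replicate 2 they were 8 and 0, without DKO replicate 1 they were 8 and 0, and without DKO replicate 2 they were 7 and 0. The genes that passed in all 6 fits with 1 retina left out were 7 of the 19 lower genes, Casp8, Ddx60, Irf7, Irf9, Mlkl, Usp18 and Zc3hav1, and 0 of the 5 higher ones.

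Among 15 regulators and cofactors of the RNA helicases, 3 fell and 1 rose, beside 9.2% and 7.35% of all genes tested. Their median log2 fold change was -0.19. Zc3hav1, which encodes the zinc-finger antiviral protein ZAP, was at 35.5, 44.2 and 61.4 normalized counts in TKO and at 200.5, 150 and 167 in DKO retinae. It fell by 1.87 on the log2 scale (adjusted p = 0.00603 from edgeR), with no overlap between groups. Ddx60, a helicase linked to RIG-I signalling, fell by 1.46 (adjusted p = 0.0099 from edgeR). Pcbp2, which encodes a protein that promotes MAVS degradation, rose by 0.53 (adjusted p = 0.0318 from edgeR), and did not pass without TKO replicate 1 or 2 or DKO replicate 1 or 2 (adjusted p up to 0.117). The abundant Ywhae and Ddx3x had log2 fold changes of -0.11 and 0.07 and did not pass, and the sign of Ddx3x turned under total-count scaling (-0.08).

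Of 20 adaptors, kinases and transcription factors downstream of the sensors, 2 fell and 2 rose, both near the shares of all genes (9.2% and 7.35%), and the median log2 fold change was -0.09. Irf7, the interferon regulatory factor that amplifies the response, had 156, 132 and 113 normalized counts in TKO and 359.5, 312 and 287 in DKO retinae. Irf7 fell by 1.26 on the log2 scale (adjusted p = 0.00621 from edgeR). Irf5 fell by 1.08 (adjusted p = 0.0217) and lost its call without TKO replicate 1 or 2 or DKO replicate 1 or 2 (adjusted p up to 0.0945). In the other direction, Azi2, a scaffold of the kinase TBK1, and Irf3, the factor that TBK1 phosphorylates, each rose by 0.42 (adjusted p = 0.0296 and 0.0305 from edgeR). Both lost their calls without the same 4 retinae, with adjusted p up to 0.116 and 0.101. Traf3 and Ikbkg, both abundant, did not pass (0.12 and 0.21 on the log2 scale), and that of Traf3 was -0.03 under total-count scaling.

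**Figure D4:**
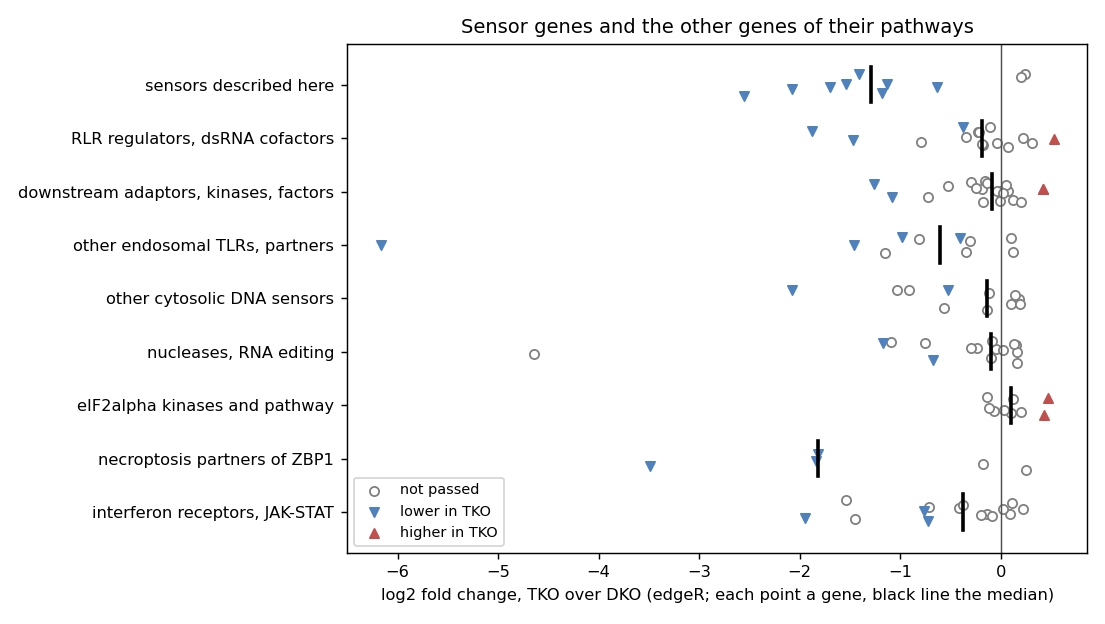
Log2 fold change of TKO over DKO on the x axis for each tested gene of the sensor set and of the other pathway lists, with triangles for genes at an adjusted p of at most 0.05 and a black line at each list's median. The sensor median lies at -1.29 and the pathway medians between -1.82 and 0.10, and the 2 points farthest to the left, Tlr8 and Dnase1l3, had 0 counts in every TKO library, so that their fitted values are no bound.

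Among 10 genes of the other endosomal Toll-like receptors and their partners, 4 fell and 0 rose, beside 9.2% and 7.35% of all genes. The median log2 fold change was -0.61. Tlr8 had 0 counts in each TKO library and 6, 9 and 15 in DKO libraries, which is at least 2.58-fold lower when each TKO library is set to 3 counts. Unc93b1, the chaperone that carries these receptors to endosomes, fell by 0.98 on the log2 scale (adjusted p = 0.0256 from edgeR), and Tlr7, a receptor for single-stranded RNA, fell by 1.45 (adjusted p = 0.0444). Irak1, a kinase that acts after them, fell by 0.40 (adjusted p = 0.05). These calls were lost without TKO replicate 2 or DKO replicate 1 or 2, with adjusted p up to 0.0649 for Tlr8, 0.103 for Unc93b1, 0.149 for Tlr7 and 0.165 for Irak1, and those of the last 3 genes were also lost without TKO replicate 1. Hsp90b1 (0.13) and Cnpy3 (0.10), chaperones of these receptors, did not pass and turned to -0.03 and -0.05 under total-count scaling.

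Of 11 other cytosolic DNA sensors tested, 2 fell and 0 rose, beside 9.2% and 7.35% of all genes, and the median log2 fold change was -0.14. Ifi204, a mouse relative of IFI16, had 33.5 ± 3.11 normalized counts in DKO retinae against 7.78 ± 4.27 in TKO retinae (SD, n = 3 each). It fell by 2.07 on the log2 scale (adjusted p = 0.0125 from edgeR), but without DKO replicate 2 its adjusted p was 0.0511. Hmgb1, an abundant chromatin protein, fell by 0.52 (adjusted p = 0.0124), and was lost without TKO replicate 2 or DKO replicate 1 or 2 (adjusted p up to 0.0595). Ddx41 (0.18) and Xrcc6 (0.14) did not pass, and Xrcc6 was at -0.02 under total-count scaling.

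Trex1 shares its role of limiting sensor ligands with a set of nucleases and RNA-editing enzymes, of which 15 were tested, 2 fell and 0 rose (median log2 fold change -0.09). These counts are close to the shares of all genes, 9.2% lower and 7.35% higher. Rnaseh2b, a subunit of the enzyme that removes ribonucleotides from DNA, fell by 0.67 (adjusted p = 0.0386 from edgeR), and Pld4, an endolysosomal exonuclease, fell by 1.17 (adjusted p = 0.039). Both calls were lost without TKO replicate 1 or 2 or DKO replicate 1 or 2 (adjusted p up to 0.151 and 0.146). Adar, which edits double-stranded RNA so that MDA5 does not bind it, had 2330 ± 58.1 and 2409 ± 31.4 normalized counts (SD, n = 3 each) and did not pass, at -0.05 on the log2 scale (95% interval -0.21 to 0.11). Adarb1 (0.15) and Pld3 (0.13) did not pass either, and were at -0.01 and -0.03 under total-count scaling.

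PKR is 1 of several kinases that phosphorylate eIF2alpha and so reduce translation. Of 9 other genes of this pathway, 0 fell and 2 rose, beside 9.2% and 7.35% of all genes, with a median log2 fold change of 0.10. Ddit3, which encodes the stress factor CHOP, rose by 0.47 (adjusted p = 0.0169 from edgeR), and Atf4, whose translation is raised by eIF2alpha phosphorylation, rose by 0.43 (adjusted p = 0.0456). Both calls were lost without TKO replicate 2 or DKO replicate 1 or 2, and that of Atf4 also without TKO replicate 1, with adjusted p up to 0.0797 and 0.151. Ppp1r15b (-0.11) and Dnajc3 (0.03) did not pass, and Dnajc3 was at -0.13 under total-count scaling.

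Of 5 necroptosis partners of ZBP1, 3 fell and 0 rose, beside 9.2% and 7.35% of all genes, and the median log2 fold change was -1.82. Mlkl, the executioner of necroptosis, had raw counts of 2, 4 and 3 in TKO and 50, 47 and 35 in DKO retinae. It fell by 3.48 on the log2 scale (95% interval -4.37 to -2.59, adjusted p = 0.0048 from edgeR). Casp8, the protease that restrains necroptosis, had 27.5, 33.7 and 46.6 normalized counts in TKO and 121, 138 and 124 in DKO retinae, and fell by 1.83 (adjusted p = 0.00603). Ripk3, the kinase between ZBP1 and MLKL, fell by 1.81 (adjusted p = 0.0467 from edgeR), but its adjusted p was 0.102 by DESeq2 and its call was lost without any 1 of 5 retinae, DKO replicate 3 being the exception (adjusted p up to 0.142). Cflar (0.25) and Ripk1 (-0.18) did not pass.

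The interferon genes themselves were near 0. Of 21 listed genes, 18 had 0 counts in every library, the highest count of the other 3 in any library was 2, and 0 passed the filter on low counts, so no difference was detectable at this depth. Of 15 interferon receptor and JAK-STAT genes, 3 fell and 0 rose, beside 9.2% and 7.35% of all genes, with a median log2 fold change of -0.38. Irf9, the DNA-binding subunit of ISGF3, fell by 0.77 (adjusted p = 0.00677 from edgeR), and Usp18, a negative regulator of the receptor that interferon induces, fell by 1.95 (adjusted p = 0.0078). Ifnar2, a subunit of the receptor, fell by 0.72 (adjusted p = 0.0355) and passed in 1 of 6 fits with a retina left out, the fit without TKO replicate 3 (adjusted p up to 0.105 in the others). Ifnar1 (-0.14) and Jak1 (0.09) did not pass, and Jak1 was at -0.06 under total-count scaling.

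Markers of some cell types fell in TKO retinae, as the sensors did, and those of others did not. Of 14 microglia markers 7 fell and 0 rose, the median log2 fold change was -1.09, and the summed normalized count was 2068, 2699 and 3812 in TKO replicates 1 to 3 and 5719, 6842 and 4448 in the DKO retinae in the same order. Fcrls (-1.73), C1qb (-1.17), Cx3cr1 (-1.09) and Csf1r (-1.03) were among those that fell, and P2ry12 (0.04), Siglech (0.77) and Tmem119 (-0.35) were among those that did not pass. Of 6 macrophage and monocyte markers tested 2 fell, with sums of 49.3 to 318 against 491 to 848. Of 9 markers of T, NK and B cells 5 were tested and 1, Cd4, fell (-2.05), with sums over the list of 30.5 to 44.7 against 50.1 to 71.5 and with 0 counts of Cd3e in each library. All 10 markers of dividing cells fell, with a median of -2.60 and sums of 1029 to 2678 against 5947 to 12748. Of 8 Muller glia markers 1 fell and 3 rose (median 0.11), and of 8 bipolar cell markers 0 fell and 2 rose. Of 7 endothelial markers 0 fell and 1 rose, of 13 lens markers 0 and 5, and of 8 pigment epithelium markers 0 and 1. All 10 rod markers rose. Over all genes tested, 9.2% were lower and 7.35% were higher. The part of any of these cell types in the fall of the sensor genes was not tested.

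Across the 6 retinae, Mb21d1 and the sum of the dividing-cell markers had the same order from low to high, TKO replicates 1, 2 and 3 and then DKO replicates 3, 2 and 1. Ddx58, Ifih1, Tlr3 and Eif2ak2 shared the order of the DKO retinae with that sum but not the order of the TKO retinae. Zbp1 and Tmem173 had the reverse order of the DKO retinae, with replicate 3 the highest. The DKO values of Zbp1 (39.5, 42.9 and 43.2) and those of Tlr3 in replicates 2 and 3 (153.2 and 152.8) differed by less than counting error. Their orders there are not informative. Within TKO retinae the sum of dividing-cell markers ran from 1029 to 2678, Eif2ak2 from 101 to 108 and Dhx58 from 52.8 to 53.7. The ranges of these 2 sensors are narrower than counting error at raw counts of 82 to 103 and 43 to 51. They cannot show that the levels were constant. In DKO replicates 1 to 3 that sum was 12748, 9254 and 5947, Eif2ak2 was 411, 320 and 277, and Dhx58 was 117, 132 and 111. The sum of microglia markers had the same order of TKO retinae, with DKO replicate 3 next. The sum of rod markers had nearly the reverse order, highest in TKO replicate 1 and lowest in DKO replicate 2. Whether any cell type accounts for these orders was not tested. These orders are descriptions of 6 retinae that share their libraries.

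**Figure D5:**
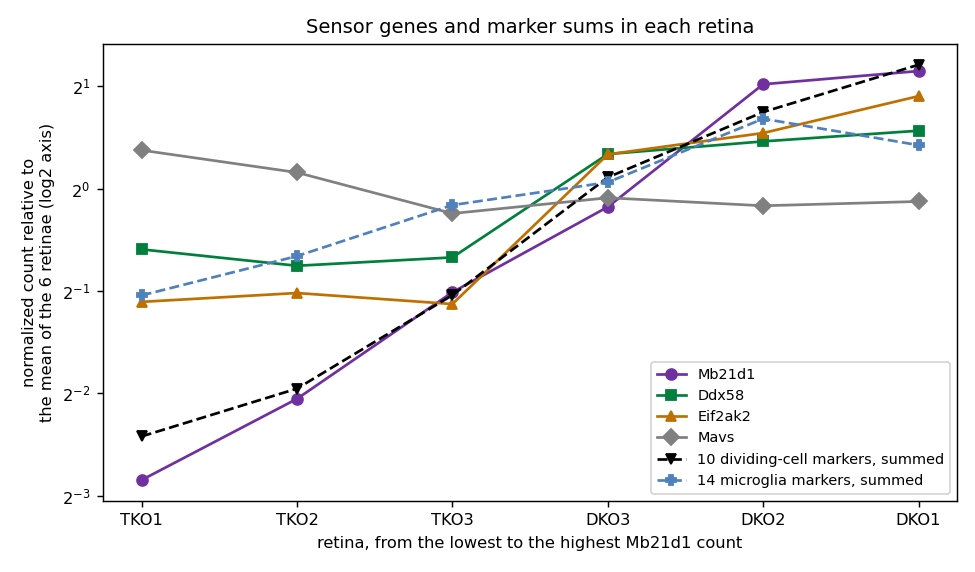
Normalized counts of 4 sensor genes and of 2 marker sums in each retina, relative to the mean of the 6 retinae on a log2 axis, with retinae ordered by Mb21d1. Mb21d1 and the dividing-cell sum have the same order from TKO1 (10.3 and 1029) to DKO1 (165 and 12748), Ddx58 and Eif2ak2 are nearly level within TKO retinae, and Mavs has its lowest value in TKO3.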

How the data were processed

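RNA-seq counts of 3 TKO and 3 DKO retinae were analysed. The deposited values are raw counts per gene symbol, without normalization. The authors' methods name STAR and HTSeq on GRCm38, whereas the submitters' processing notes name TopHat2 and featureCounts, so the counting tool is uncertain. Reads with several alignments were allowed and the strand setting of the counting is not given in the sources used here. Library totals were 10343907 to 14203098 counts, all columns were used, and retinae of a genotype were further apart than counting noise (chi-square over its degrees of freedom 8.97 to 26.6).

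Symbols with fewer than 10 counts in all were left out, leaving 16904 genes. The main test was the quasi-likelihood F test of edgeR 4.0.16 in R 4.3.3, with TMM scaling and default settings. P-values were adjusted by Benjamini-Hochberg over all of them, and a gene passed at an adjusted p of at most 0.05. The stricter 3 criteria take their limits from the study's methods, which applied them to DESeq2 results, but use edgeR's fold change and adjusted p here, with the mean from DESeq2's size factors. Standard errors were derived from the fold change and the F statistic, and 95% intervals use the t distribution. A count of 0 was set to 3 counts per library for bounds, which cover counting error only. The script was tested on simulated data. Exon lengths, overlaps and positions come from GENCODE vM21, in which 22751 of 24062 symbols (94.6%) were found.

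All 10 sensors were named, with the 3 genes of each pathway list with the smallest adjusted p among those that passed and the 3 with the largest mean count. The 3 most abundant markers of a list could be named, and for likeness the 3 nearest genes of each sensor that passed. Irf3, Dnase1l3, Fcrls, Cx3cr1, P2ry12, Siglech, Tmem119, Cd4, Cd3e, Atrip and Rb1 were named outside this rule after their values were seen. A few genes that fall under it are left unreported. The members and lists were chosen with earlier results of these data known. Same-numbered retinae did not deviate together (correlations 0.0658, -0.0499 and -0.199), so the numbers were not taken as pairs. The alternatives were DESeq2 1.42.0, 3 other scalings, 3 other filters, robust dispersion, a block for the replicate number, fits without each retina in turn, and thresholds of 0.01 and 0.1. Leaving out replicate 3 of both genotypes was added after seeing the data.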

Additional observations from a re-analysis of the deposited data

How the results depend on the processing

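All 10 sensor genes kept the sign of their log2 fold change under every alternative run. The 8 lower sensors became 5 at an adjusted p of at most 0.01, 5 to 8 with 1 retina left out (5 without TKO replicate 2 or DKO replicate 2) and 2 with the replicate block. The replicate numbers do not pair the retinae, so the block is given only here. Sensors that passed as higher numbered 0 to 1 with 1 retina left out and 1 (Mavs, adjusted p = 0.0393 from edgeR) without replicate 3 of both genotypes. The 19 lower pathway genes became 29 under total counts, 2 with the replicate block, 7 at an adjusted p of at most 0.01 and 7 to 20 with 1 retina left out (22 without replicate 3 of both genotypes). The 5 higher ones became 0 under total counts, 0 with the block, 0 at an adjusted p of at most 0.01 and 0 to 6 with 1 retina left out (7 without replicate 3 of both genotypes). Signs turned only in genes that did not pass. Under total counts these were Adarb1 (-0.00523), Cnpy3 (-0.0543), Ddx3x (-0.0833), Dnajc3 (-0.125), Hsp90b1 (-0.0304), Jak1 (-0.0624), Pld3 (-0.0272), Traf3 (-0.0335) and Xrcc6 (-0.0218). Dnajc3 also turned under upper-quartile scaling (-0.00185), without replicate 3 of both genotypes (-0.0754) and with 1 retina left out (-0.0323 to 0.0914), and Ddx3x with 1 retina left out (-0.00918 to 0.161, and 0.166 without replicate 3 of both genotypes). The cause was not tested. Of the other comparisons of a named gene with an alternative, 529 kept direction and call, 84 lost the call and 6 gained it. Zbp1 and Mb21d1 were not tested when 10 counts were required in every library. Low counts limit Zbp1, Ripk3, Mlkl, Tlr8, Dnase1l3 and the interferon genes.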

Other observations

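For each sensor that passed the test, the genes with the most similar profile over the 6 retinae were sought among genes with a mean normalized count of at least 50, by the root mean square difference of log2 deviations from each gene's own mean. The profiles follow the difference between genotypes, so genes found in this way also differ between them. For Ddx58 the nearest were Trim21 (0.0662), Cep128 (0.0755) and Parp9 (0.0862), and for Ifih1 they were Xaf1 (0.0828), Ddx60 (0.0983) and Topbp1 (0.105). For Zbp1 they were Gbp3 (0.129), Ifi27l2a (0.137) and Trim30d (0.173), and for Tmem173 they were Glipr2 (0.194), H2-K1 (0.216) and Vav1 (0.22). Mb21d1 was nearest to Nek2 (0.0814), Ticrr (0.123) and Ndc80 (0.14), and Eif2ak2 was nearest to Oasl2 (0.137), Dusp18 (0.137) and Cdc25c (0.152). Dhx58 was nearest to Ccdc34 (0.121), Snx7 (0.124) and Sh3bp2 (0.134), and Tlr3 to Plagl1 (0.0645), Zfp704 (0.0653) and Zfp275 (0.0699). Genes known from mitosis or DNA replication were all 3 neighbours of Mb21d1 (Nek2, Ticrr and Ndc80). For Eif2ak2, Cdc25c had only rank 3, after Oasl2 and Dusp18. For Ifih1, Topbp1 had only rank 3, after Xaf1 and Ddx60. The neighbours were not sorted by any other function, and what a sensor and its neighbours share was not tested.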
